A study of Rattus norvegicus with 8 samples.

Results

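The genes described here carry the 4 symbol families through which most named ubiquitin enzymes are known: Ube2 (ubiquitin-conjugating enzymes), Usp (ubiquitin-specific proteases, which remove ubiquitin), Trim (tripartite motif proteins) and Rnf (RING finger proteins). Members were all probe sets whose single gene symbol on the array begins with one of these names followed by a digit or letter, and whose deposited signal was 50 or more on at least 2 arrays. The symbols matched 291 probe sets of 178 genes, and 247 probe sets of 162 genes were kept, among 19808 probe sets that met the same minimum. The kept probe sets comprised 47 of 29 Ube2 genes, 73 of 42 Usp genes, 38 of 27 Trim genes and 89 of 64 Rnf genes. The 44 probe sets left out had a highest single signal of 67.4, and 16 genes had no probe set kept. At the edge of the minimum, by second highest signal, Rnf150 (50.1), Usp27x (50.7) and Usp49 (51.8) lay just inside, and Trim65 (48.1), Rnft2 (47.0) and 1 probe set of Ube2b (46.5) just outside. The symbols also bring in proteins that are not ubiquitin enzymes, such as Usp6nl, a GTPase-activating protein for Rab proteins, Usp39, a splicing factor without deubiquitinase activity, and Uspl1, a SUMO protease.

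RNA of whole testis from adult Sprague-Dawley rats was measured on Affymetrix Rat Genome 230 2.0 arrays, with 1 array per sample. Testes were taken 8 h (2 arrays) and 4 d (3 arrays) after a single gavage of Adjudin at 50 mg/kg body weight, and from untreated rats (control, 3 arrays). Adjudin is an indazole carbohydrazide that loosens the junctions between Sertoli cells and germ cells, so that developing germ cells leave the seminiferous epithelium. No vehicle group is named, the description field calls all 8 samples normal testis, so that groups rest on the titles, and the labels do not state that each array came from a separate rat, so the p-values here cover the spread among these arrays, part or all of which could be technical. Values are the MAS 5.0 signal of a probe set, a linear intensity, and differences are in log2(signal + 16) from 1 limma fit over all probe sets tested. Probe sets differ in how strongly they bind, so brightness describes a probe set's signal and is no RNA level of one gene against another. A probe set was called when its Benjamini-Hochberg adjusted p was below 0.05.

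Ubiquitin is attached to proteins by a relay: an activating enzyme (E1) passes it to a conjugating enzyme (E2), which works with a ligase (E3) that picks the substrate, and deubiquitinases take it off again. Chains joined in different ways mark proteins for the proteasome, for repair of DNA or for signalling. In the testis this system is known for the removal of histones and of cytoplasm while spermatids elongate, and several E2s and ligases are known from mouse knockouts to be needed for sperm formation.

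Promoters of 5 members that the results turn on are shown first: 3 whose probe sets fell at 4 d (Rnf182, Ube2n and Ube2g2) and 2 that rose (Trim2 and Trim47). Each is the 250 bases before the annotated start, read 5′ to 3′ along the gene from RefSeq's promoter table on build GRCr8. Capitals mark matches on either strand. The motifs were the GC box (GGGCGG), the half-site of the cyclic AMP response element (TGACG), the TATA box (TATAAA) and the full response element to cyclic AMP (TGACGTCA), which contains the half-site. The last was the core of the interferon-stimulated response element, which is GAAA and again GAAA with any 2 bases between them.
Rnf182, chr17:21287161-21287410, minus strand: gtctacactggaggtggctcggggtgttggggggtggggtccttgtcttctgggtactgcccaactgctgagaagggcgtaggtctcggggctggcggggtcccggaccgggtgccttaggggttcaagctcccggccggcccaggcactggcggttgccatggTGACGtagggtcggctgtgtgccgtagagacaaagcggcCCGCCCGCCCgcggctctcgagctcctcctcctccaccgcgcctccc
Ube2n, chr7:32040959-32041208, plus strand: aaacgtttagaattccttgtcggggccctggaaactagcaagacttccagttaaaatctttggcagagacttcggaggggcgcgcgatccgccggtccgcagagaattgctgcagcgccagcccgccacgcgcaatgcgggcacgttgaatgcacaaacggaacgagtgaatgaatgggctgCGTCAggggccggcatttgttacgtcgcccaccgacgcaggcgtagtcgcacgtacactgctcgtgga
Ube2g2, chr20:11005061-11005310, minus strand: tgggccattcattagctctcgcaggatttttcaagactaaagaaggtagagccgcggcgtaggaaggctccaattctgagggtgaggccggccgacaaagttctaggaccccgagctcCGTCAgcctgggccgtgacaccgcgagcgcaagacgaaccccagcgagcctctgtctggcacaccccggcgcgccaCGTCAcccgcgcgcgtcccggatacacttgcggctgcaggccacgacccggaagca
Trim2, chr2:171862445-171862694, minus strand: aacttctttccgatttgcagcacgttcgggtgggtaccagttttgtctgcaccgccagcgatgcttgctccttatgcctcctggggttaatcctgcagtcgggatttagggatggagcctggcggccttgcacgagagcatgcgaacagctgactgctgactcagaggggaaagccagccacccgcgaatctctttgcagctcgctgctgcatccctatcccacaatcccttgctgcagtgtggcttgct
Trim47, chr10:101840937-101841186, minus strand: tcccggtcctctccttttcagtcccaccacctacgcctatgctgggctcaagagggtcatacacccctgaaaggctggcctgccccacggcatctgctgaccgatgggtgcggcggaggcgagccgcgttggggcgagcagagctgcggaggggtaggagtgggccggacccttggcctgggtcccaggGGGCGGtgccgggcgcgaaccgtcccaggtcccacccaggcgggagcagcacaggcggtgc
The Rnf182 window held GC boxes and 1 half-site, the Ube2n window 1 half-site, the Ube2g2 window 2 half-sites, the Trim47 window 1 GC box and the Trim2 window none of the motifs searched. These are matches of letters in a window and say nothing of binding.

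At 4 d after Adjudin, 10 member probe sets of 8 genes were higher than in control and 16 probe sets of 16 genes were lower, while 221 were not called. The members that fell were mostly bright in control and included the E2s Ube2n, Ube2g2, Ube2k, Ube2j1 and Ube2a, the deubiquitinases Usp12, Usp35, Usp44 and Usp15, and ligases with known testis roles such as Rnf151 and Trim17. Those that rose were mostly dim in control: Trim2, Trim5, Trim25, Trim35, Trim47, Usp25, Ube2z and Rnf115. At 8 h no member (0 of 247) was called in either direction by limma.

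The share of members called higher at 4 d was 4.05%, against 6.13% of all probe sets tested (1214 of 19808), and the share called lower was 6.48%, against 3.71% (735 of 19808). The median log2 difference of the 247 members was -0.03, against 0.04 over all probe sets tested. Of the members, 65 had an unadjusted p below 0.05, against 4499 of the 19808 probe sets tested. Counted by gene with the brightest probe set of each, 7 rose and 16 fell of 162. The same count over all 11248 genes tested was not made, so these counts cannot be set against the shares of probe sets. Bright probe sets fell more often over the whole array, as given below. A fit that blocks on the hybridisation run called 24 members higher and 43 lower, against 13.3% of all probe sets higher (2632) and 9.17% lower (1817). Scaling the arrays to equal medians moved the median of all probe sets at 4 d to -0.10 and left 6 members higher and 21 lower, and quantile normalization left 10 higher and 22 lower. Over all probe sets, equal medians gave 743 higher and 921 lower, and quantile normalization 1132 higher and 983 lower.

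**Figure D1:**
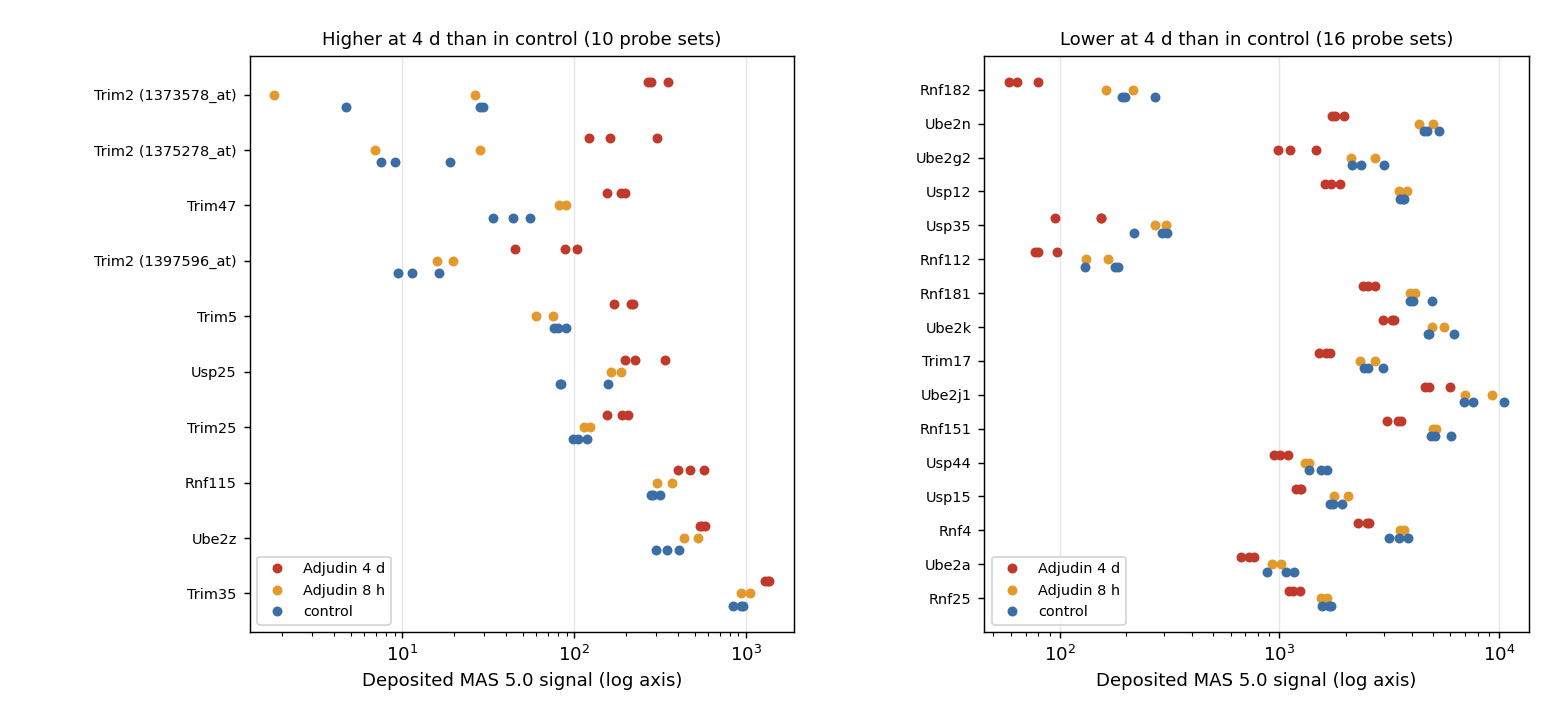
Deposited MAS 5.0 signal (log axis) of the 26 member probe sets called at 4 d against control, 1 point per array, with 4 d (n = 3), 8 h (n = 2) and control (n = 3) in rows of their own and genes ordered by the size of the difference. On the left are the 10 probe sets that rose and on the right the 16 that fell. In all 26 the 4 d points lie apart from the control points, which follows largely from choosing them by this difference.

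Some values of the whole series touch all of these results. Arrays of 1 hybridisation run departed from their group means together (correlations of 0.353 to 0.506 over all probe sets, against -0.475 to 0.246 between runs). The negative values follow in part from deviations that cancel within a group. Another fluidics version and a settings entry that names mouse were found for 2 of the 8 arrays (control 2 and 4 d 2, run 2). Without run 2, 4 members were called higher and 3 lower, all of them among the 26, against 1.76% of all probe sets higher and 0.848% lower. Marker genes of cell types moved at 4 d as well. Of 10 markers of elongating and elongated spermatids, 5 fell and none (0) rose, with a median log2 difference of -0.65, and their summed signal was 73510 to 106300 at 4 d, against 107600 to 161000 in control. Blocking on the run, all 10 fell. Of 4 measured round spermatid markers (of 7 listed) 3 fell (4 with the block), with sums of 10000 to 10920 at 4 d, against 15120 to 18020 in control. Of 12 leukocyte markers 8 rose (11 with the block), with a median of 1.25 and sums of 4898 to 6516 at 4 d, against 1429 to 1780 in control. Sertoli cell markers summed to 20260 to 27150 at 4 d, against 10700 to 12600 in control, with a median of 0.30. Of 9 measured, 2 rose and 1 fell (3 and 2 with the block). Their sum rested mostly on Ctsl (means of 7771 at 4 d and 2086 in control), Clu (11430 and 7988) and Testin (2014 and 40.1). Rhox5 fell, and Clu, Gata4, Wt1, Inha, Inhbb and Amh were not called. Of 7 Leydig cell markers 1 rose (4 with the block), with a median of 0.48, and of 2 measured red blood cell markers 2 rose. Spermatocyte markers (0 of 5 called) summed to 7577 to 8549 at 4 d, against 6821 to 9438 in control. In whole testis, fewer cells of a type and less RNA per cell cannot be told apart, and the part of these cell types in the results below was not tested.

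Among the conjugating enzymes, 1 probe set rose and 5 fell at 4 d, with a median of -0.04 over 47. The shares were 2.13% and 10.6%, against 6.13% and 3.71% of all probe sets. The block on the run gave 5 rises and 10 falls, against 13.3% and 9.17% of all probe sets. The fall with the smallest adjusted p was that of Ube2n, the rat Ubc13, which builds K63-linked chains together with a Ube2v partner. Its signal was 1794.4, 1738.0 and 1975.9 at 4 d, against 4575.2, 4702.2 and 5301.5 in control. All 3 arrays at 4 d lay far below all controls, at a log2 difference of -1.40 (SE 0.12, limma adjusted p 0.000224), with -1.34, -1.43 and -1.42 within runs 1, 2 and 3. At 8 h Ube2n read 4312.6 and 5011.9, 1 array just below the lowest control and 1 inside their range. Ube2g2, an E2 of degradation from the endoplasmic reticulum, read 985.9, 1112.7 and 1463.1 at 4 d, against 2143.8, 2355.4 and 3008.7 in control. The groups did not overlap, and the log2 difference was -1.07 (SE 0.19, adjusted p 0.00642). Ube2k, which makes K48-linked chains, read 2951.3, 3254.4 and 3318.9 at 4 d, against 4814.1, 4759.6 and 6225.4 in control (log2 difference -0.72, SE 0.14, adjusted p 0.00990). Ube2j1, a membrane-bound E2 of the endoplasmic reticulum that mouse spermatids need, was the brightest Ube2 gene in control. It read 4820.1, 4589.7 and 5967.4 at 4 d, against 7624.0, 6902.8 and 10529.5 in control, groups that lay apart although control 3 was well above the other controls (log2 difference -0.69, SE 0.19, adjusted p 0.0458). Ube2a, one of the mammalian Rad6 homologs, averaged 723 ± 49.9 at 4 d and 1039 ± 145 in control (SD, n = 3 each), a log2 difference of -0.51 (adjusted p 0.0452).

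The single Ube2 gene that rose was Ube2z, an E2 that takes ubiquitin from the E1 Uba6. It read 550.1, 575.1 and 535.4 at 4 d, against 346.4, 404.2 and 296.8 in control, with no overlap (log2 difference 0.65, SE 0.15, limma adjusted p 0.0221). Another probe set of Ube2z was at 0.31 without a call (limma adjusted p 0.56). Ube2s, the second brightest E2, which extends chains for the anaphase-promoting complex, was not called (log2 difference -0.19, adjusted p 0.477). Its partner Ube2c was not called either (-0.40, adjusted p 0.199), but was with the run as a block (adjusted p 0.00985). Of these calls, that of Ube2n held in all 19 alternatives. The call of Ube2g2 was lost without run 2 (adjusted p 0.0808) and that of Ube2k without 4 d replicate 1 or run 2 (adjusted p up to 0.0788). Ube2j1 lost its call in 10 of the 19, among them the removal of any 1 control or 4 d array, Ube2a in 12 and Ube2z in 7 (adjusted p up to 0.0919), among them the removal of any 1 of the 4 d arrays.

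**Figure D2:**
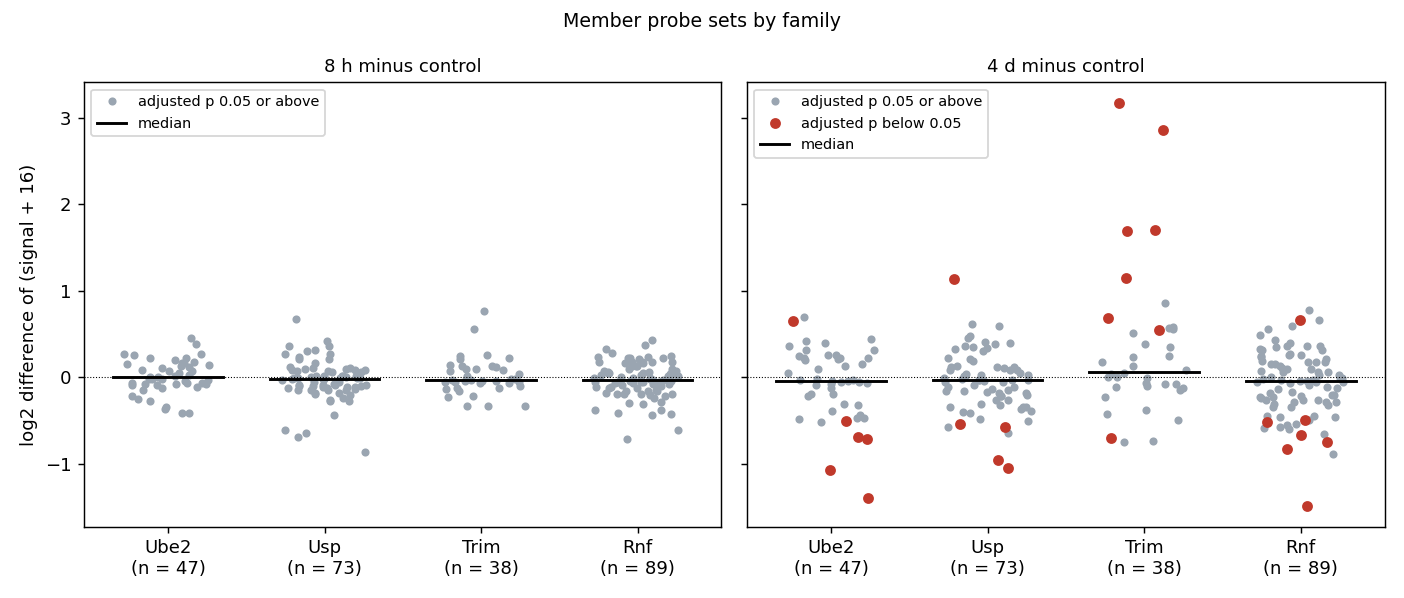
Log2 difference of (signal + 16) at 8 h (left) and 4 d (right) against control for every member probe set, 1 point each, by family, with the family median as a line and called probe sets in red. At 8 h no point is red; at 4 d 1 red point lies above 0 in each of Ube2, Usp and Rnf and 7 in Trim, 3 of them probe sets of Trim2.

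Among the deubiquitinases 1 probe set rose and 4 fell at 4 d, with a median of -0.03 over 73. The shares were 1.37% and 5.48%, against 6.13% and 3.71% of all probe sets. The block on the run gave 3 rises and 10 falls, against 13.3% and 9.17% of all probe sets. Usp12, which works with WD-repeat cofactors, read 1619.9, 1709.1 and 1884.3 at 4 d, against 3673.6, 3556.0 and 3637.1 in control. The control arrays lay close to each other and every 4 d array was far below them (log2 difference -1.05, SE 0.11, limma adjusted p 0.000496), and the 8 h arrays read 3505.0 and 3793.3. Usp35 read 154.1, 154.6 and 95.0 at 4 d, against 308.8, 291.9 and 218.8 in control, without overlap (log2 difference -0.96, SE 0.21, adjusted p 0.0188). Usp44, a deubiquitinase of histone H2B, averaged 1016 ± 74.4 at 4 d and 1522 ± 142 in control (SD, n = 3 each), a log2 difference of -0.57 (adjusted p 0.0158). Usp15, which acts on the TGF-beta receptor complex, averaged 1228 ± 31.1 and 1790 ± 117 (4 d and control, SD, n = 3 each), a log2 difference of -0.54 (adjusted p 0.0175).

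Usp25, which acts in interferon and cytokine signalling, was the one Usp gene that rose: it read 225.1, 197.5 and 336.4 at 4 d, against 157.4, 83.8 and 82.8 in control (log2 difference 1.14, SE 0.26, limma adjusted p 0.0237). Control 1 was the nearest to the 4 d arrays, and the difference was 0.48, 1.10 and 1.83 within runs 1, 2 and 3. The brightest Usp genes in control were Usp2, at 6187 ± 85.9 at 4 d and 7994 ± 941 in control, and Usp1, at 5028 ± 675 at 4 d and 4872 ± 731 in control (SD, n = 3 each). Neither was called, although Usp2, a protease that mouse sperm need, was with the run as a block (adjusted p 0.00330, against 0.113 without it). The call of Usp12 held in all 19 alternatives. The others were lost on leaving out single arrays: Usp35 without control 1, control 2 or 4 d 3 (adjusted p up to 0.110), Usp44 without control 2, 4 d 1 or 4 d 3 (up to 0.121), Usp15 without control 1, 4 d 1 or 4 d 2 (up to 0.125) and Usp25 without control 2, control 3, 4 d 1 or 4 d 3 (up to 0.114).

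Of the Trim family, which holds many antiviral and signalling ligases, 7 of 38 probe sets rose, 1 fell and 30 were not called at 4 d (18.4% higher and 2.63% lower, against 6.13% and 3.71% of all probe sets). Its median was 0.06, and -0.08 with arrays scaled to equal medians. Trim2, a ligase best known from neurons, gave 3 of the 7, and all 3 of its probe sets met the signal minimum only through the 4 d arrays, so that their calls are a description only. The same was true of 1 uncalled probe set each of Trim47 and Trim8, and without these 5, a count made after the data were seen, the Trim family had 4 rises and 1 fall among 33. Blocking on the run, 9 of the 38 rose and 5 fell, against 13.3% and 9.17% of all probe sets. With 1 probe set per gene 4 of 27 genes rose and 1 fell, or 4 and 4 with the block. The same count over all genes tested was not made. The brightest Trim2 probe set read 351.1, 268.4 and 280.1 at 4 d, against 4.7, 28.3 and 29.3 in control, and 1.8 and 26.4 at 8 h. Every 4 d array was many times brighter than any other array. The log2 difference was 3.18 (SE 0.39, limma adjusted p 0.00116), with 4.15, 2.68 and 2.71 within runs 1, 2 and 3, on a scale whose pseudocount of 16 is close to the control signals and so understates the change. Its other probe sets gave 2.86 and 1.70.

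Trim5, whose primate relatives restrict retroviruses, read 214.6, 169.9 and 219.6 at 4 d, against 80.0, 88.8 and 76.5 in control. The 8 h arrays, at 59.6 and 75.4, lay below all controls, and the 4 d arrays far above them (4 d against control: log2 difference 1.15, SE 0.18, adjusted p 0.00448 in limma). Trim25, a ligase of the RNA sensor RIG-I and for the ubiquitin-like protein ISG15, read 188.3, 154.1 and 206.1 at 4 d, against 104.6, 97.9 and 118.6 in control (0.69, SE 0.17, adjusted p 0.0330). Trim35 was the only riser that was bright in control, at 1328 ± 40.3 at 4 d and 908 ± 61.8 in control (SD, n = 3 each), a log2 difference of 0.54 (adjusted p 0.0172). Trim17, a ligase with high expression in testis, was the one Trim gene that fell, with 1629.9, 1695.7 and 1513.2 at 4 d, against 2538.5, 2424.0 and 2956.6 in control (-0.70, SE 0.13, adjusted p 0.00743). The brightest Trim genes were Trim28, a transcriptional co-repressor, and Trim37, a peroxisomal and centrosomal ligase, and neither was called (log2 differences -0.13 and -0.10, which became 0.10 and 0.08 with quantile normalization). Trim5 and 2 of the Trim2 probe sets kept their calls in all 19 alternatives, Trim17 lost its call without run 2 (adjusted p 0.0604), and Trim25 and Trim35 lost theirs without control 2, 4 d 1 or 4 d 3 and with equal medians, Trim25 also without control 1 (adjusted p up to 0.135 and 0.120).

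Among the RING finger genes 1 probe set rose and 6 fell at 4 d, with a median of -0.05 over 89. The shares were 1.12% and 6.74%, against 6.13% and 3.71% of all probe sets. The block on the run gave 7 rises and 18 falls, against 13.3% and 9.17% of all probe sets. Rnf182, a membrane-bound ligase, had the largest fall of all members: it read 64.2, 59.0 and 79.4 at 4 d, against 198.6, 272.4 and 191.4 in control (log2 difference -1.49, SE 0.20, limma adjusted p 0.00174). Its 8 h arrays, at 162.6 and 215.2, spanned the lower control values, and the 4 d arrays stood apart from all of them. Another probe set of Rnf182 was at -0.58 without a call (limma adjusted p 0.286). Rnf112, a RING protein with a GTPase domain, read 77.5, 97.6 and 79.9 at 4 d, against 179.2, 183.9 and 130.1 in control (-0.83, adjusted p 0.0254). Rnf181 averaged 2552 ± 163 at 4 d and 4304 ± 546 in control (SD, n = 3 each; -0.74, adjusted p 0.00542). Rnf151, known from round spermatids in mouse, was one of the brightest ligases of the family. It read 3081.9, 3564.4 and 3448.1 at 4 d, against 4897.7, 5113.2 and 6050.3 in control, with no overlap (-0.66, SE 0.12, adjusted p 0.00880). Rnf4, which ubiquitinates SUMO-modified proteins, averaged 2445 ± 142 and 3512 ± 352, and Rnf25 averaged 1171 ± 70.0 and 1655 ± 77.9 (4 d and control, SD, n = 3 each), log2 differences of -0.52 and -0.49.

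Rnf115, a ligase of membrane traffic, was the one that rose, at 472.3, 398.1 and 570.9 at 4 d, against 286.2, 279.9 and 314.9 in control (log2 difference 0.67, SE 0.16, limma adjusted p 0.0290). Rnf138, the brightest Rnf gene, averaged 5773 ± 1155 at 4 d and 7871 ± 1385 in control (SD, n = 3 each) and was not called (-0.45, adjusted p 0.187), but was with the run as a block (adjusted p 0.00121). Rnf182 kept its call in all 19 alternatives, and Rnf181 lost it only without run 2 (adjusted p 0.0667). Rnf151 lost its call without 4 d 1 or run 2 (up to 0.0823). Rnf112 and Rnf25 lost theirs without control 1, control 2, 4 d 1 or 4 d 3 (up to 0.149 and 0.147), and so did Rnf115 and Rnf4 (up to 0.156 and 0.188), Rnf4 also without 4 d 2.

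The level in control and the direction of the call went together, in the members as over the whole array, with a cut of 500 that was chosen after the data were seen. Part of this was set in advance. A probe set below the minimum on all controls was kept only through other arrays, and a dim one has little room to fall. The control mean is also a term of the difference. Of the 10 members that rose, 3 (the Trim2 probe sets) met the minimum only through the 4 d arrays, and they count in the values below. Of the 247 members, 99 (40.1%) averaged above 500 in control, against 23.0% of all probe sets tested. The median control signal was 2571 for the 16 members that fell and 94.4 for the 10 that rose, against 1126 and 152.6 for all probe sets that fell and rose. Above 500, 1.01% of members rose and 13.1% fell, against 4.12% and 11.0% of all probe sets. At 500 or below, 6.08% of members rose and 2.03% fell, against 6.73% and 1.52%.

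**Figure D3:**
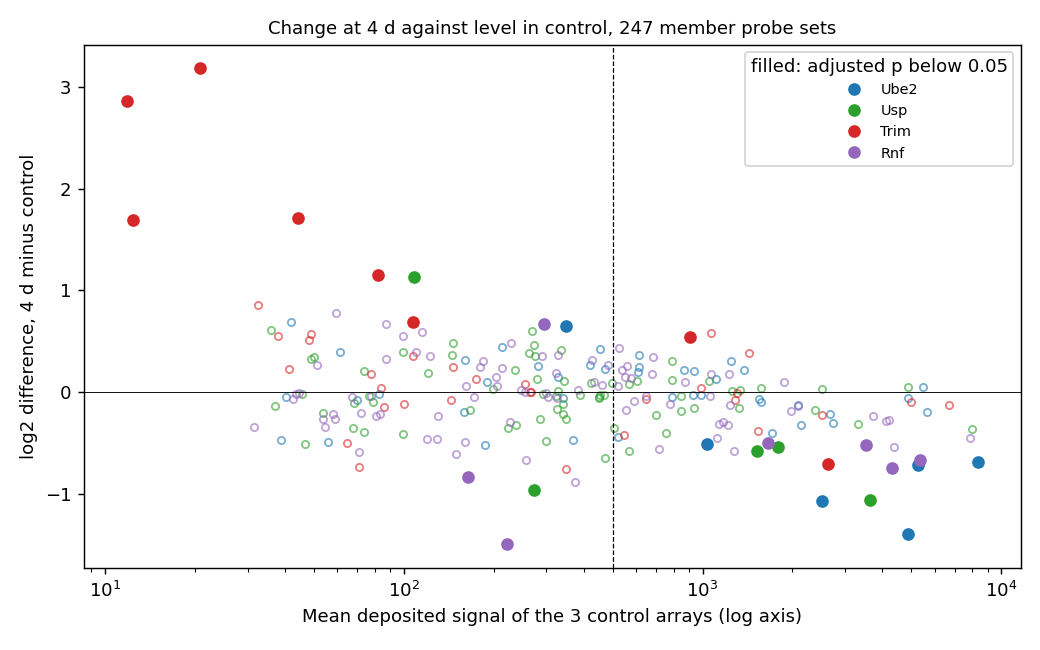
Log2 difference at 4 d against control (vertical axis) for the 247 member probe sets by their mean deposited signal in control (log axis), colours for families, filled points for adjusted p below 0.05 and a dashed line at a signal of 500. Filled points below 0 lie mostly right of the line, 13 of 16, and filled points above 0 mostly left of it, 9 of 10. Among those 9 are 3 Trim2 probe sets that met the signal minimum only through the 4 d arrays.

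By role, the members with a known place in male germ cells held 7 of the 16 falls. Of the 20 measured (of 26 listed), 7 fell and none (0) rose at 4 d, with a median of -0.40, against 3.71% lower and 6.13% higher over all probe sets tested: Ube2n, Trim17, Ube2j1, Rnf151, Usp44, Rnf4 and Ube2a. Blocking on the run, 13 of 20 fell, against 9.17% of all probe sets. The remaining 13 ranged up to 0.41 (Usp9x, adjusted p 0.394), and included Trim66 at -0.75 (adjusted p 0.145) and Usp14, which frees ubiquitin at the proteasome, at 0.02. The list overlaps the other role lists in several genes, and the spermatid markers above fell in the same arrays. All role lists were chosen with earlier results of these data known, so the choice may be part of these shares. The 7 that fell all averaged above 500 in control, where 11.0% of all probe sets fell and 4.12% rose. Of 11 members of the endoplasmic reticulum, 2 fell (Ube2g2 and Ube2j1) and none (0) rose, with a median of -0.29, and blocking on the run gave 5 falls. Another probe set of Ube2g2 was at -0.06 without a call (adjusted p 0.925). For this list and those that follow, the shares over all probe sets were 3.71% lower and 6.13% higher. With the block they were 9.17% and 13.3%. Of 14 members acting on histones and chromatin, 2 fell (Usp44 and Ube2a), and blocking on the run gave 4 falls and 1 rise. Of 5 acting on TGF-beta and other receptors 1 fell (Usp15), and of 4 of K63 chain formation 1 fell (Ube2n), while its partner Ube2v2 and the ligases Rnf8 and Rnf168 were at -0.03, 0.00 and -0.01. Both measured E2s of SUMO and NEDD8 conjugation, among them Ube2f (-0.21, adjusted p 0.519), and all 3 cell cycle E2s were not called. None of the muscle ligases Trim54, Trim55 and Trim63 had a tested probe set.

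Members tied to ISG15 and interferon form another of the role lists. Of 9 measured (of 12 listed), 2 rose at 4 d, Trim5 and Trim25, and none (0) fell, with a median of 0.39, against 6.13% higher and 3.71% lower over all probe sets. Blocking on the run, 5 rose, against 13.3% of all probe sets, among them Ube2l6, the E2 of ISG15, at 78.1, 61.1 and 94.4 at 4 d, against 32.1, 44.4 and 49.2 in control (0.69, limma adjusted p 0.0424 with the block and 0.114 without it). Usp18, which removes ISG15, was the one member of the list below 0 (-0.39, adjusted p 0.446). The leukocyte markers rose at 4 d beside this list.

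**Figure D4:**
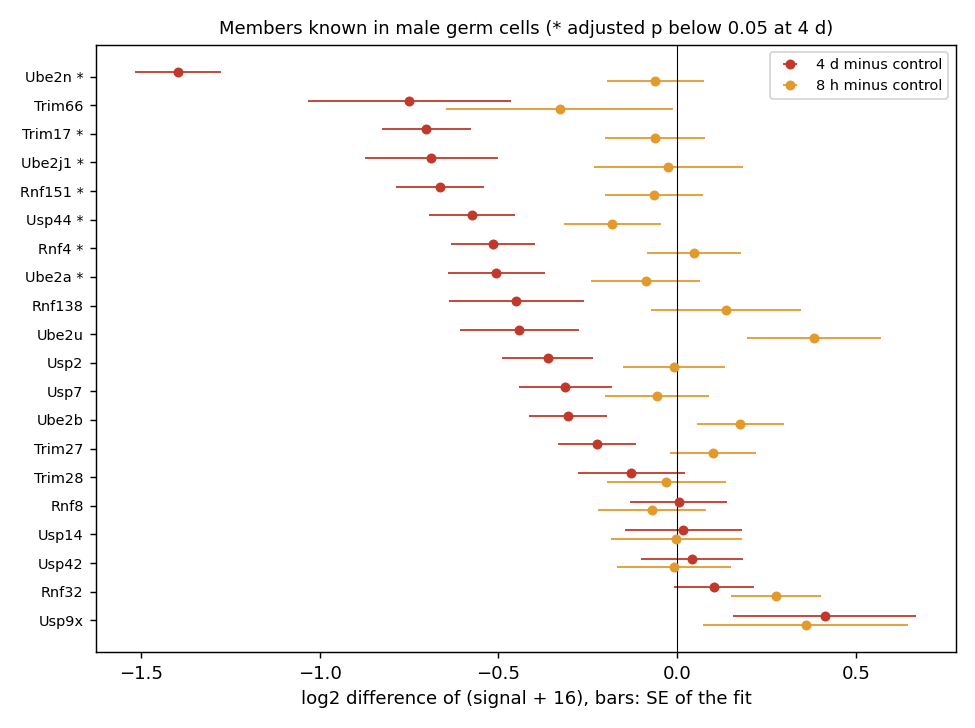
Log2 difference of (signal + 16) at 4 d (red) and at 8 h (orange) against control for the 20 measured members known in male germ cells, with bars for the standard error of the fit and stars for the 7 called at 4 d. The 4 d values spread from -1.40 to 0.41 while the 8 h values lie between -0.33 and 0.38.

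Several genes had more than 1 probe set, and these did not always move alike. For the 66 such genes, the change of the brightest probe set at 4 d was compared with that of each other in 85 pairs, a comparison added after the data were seen. In 2 pairs (2.35%) the brightest probe set fell relative to the other, against 0.956% of 4081 pairs over all genes, and in none (0) did it rise, against 0.294%. For Ube2n, the brighter probe set fell by 1.40 on the log2 scale, whereas the other read 1380.7, 1428.9 and 1628.1 at 4 d, against 1601.5, 1454.6 and 1569.3 in control. The second probe set overlapped between groups (log2 difference -0.06), and the difference between the changes was -1.33 (SE 0.19, limma adjusted p 0.0181). For Trim47 the brightest probe set read 136.6, 151.7 and 119.4 at 4 d, against 160.5, 136.8 and 133.7 in control, which overlapped. Another of its probe sets read 197.0, 155.0 and 187.6 at 4 d, against 55.4, 33.6 and 44.0 in control, which lay far apart (log2 difference 1.71, SE 0.21, adjusted p 0.00101). The difference between these changes was -1.78 (SE 0.29, adjusted p 0.0249), and the rise of Trim47 therefore rests on 1 of its 3 probe sets, with the third at 0.85 (adjusted p 0.0627). For Rnf181, Rnf4, Ube2g2, Rnf151, Ube2k and Ube2a the brightest probe set fell and another stayed between -0.17 and 0.26 without a call, but the difference did not pass the test (adjusted p 0.0744 to 0.409). With the run as a block it passed for Rnf181 (adjusted p 0.0334), 1 pair of Rnf4 (0.0335) and Ube2g2 (0.0275). For Rnf182, whose other probe set was at -0.58, the difference was -0.91 (limma adjusted p 0.203, and 0.0335 with the block). In all, the block gave 8 pairs in which the brightest probe set fell relative to the other and 1 in which it rose, of 85, against 3.38% and 1.86% of all pairs.

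**Figure D5:**
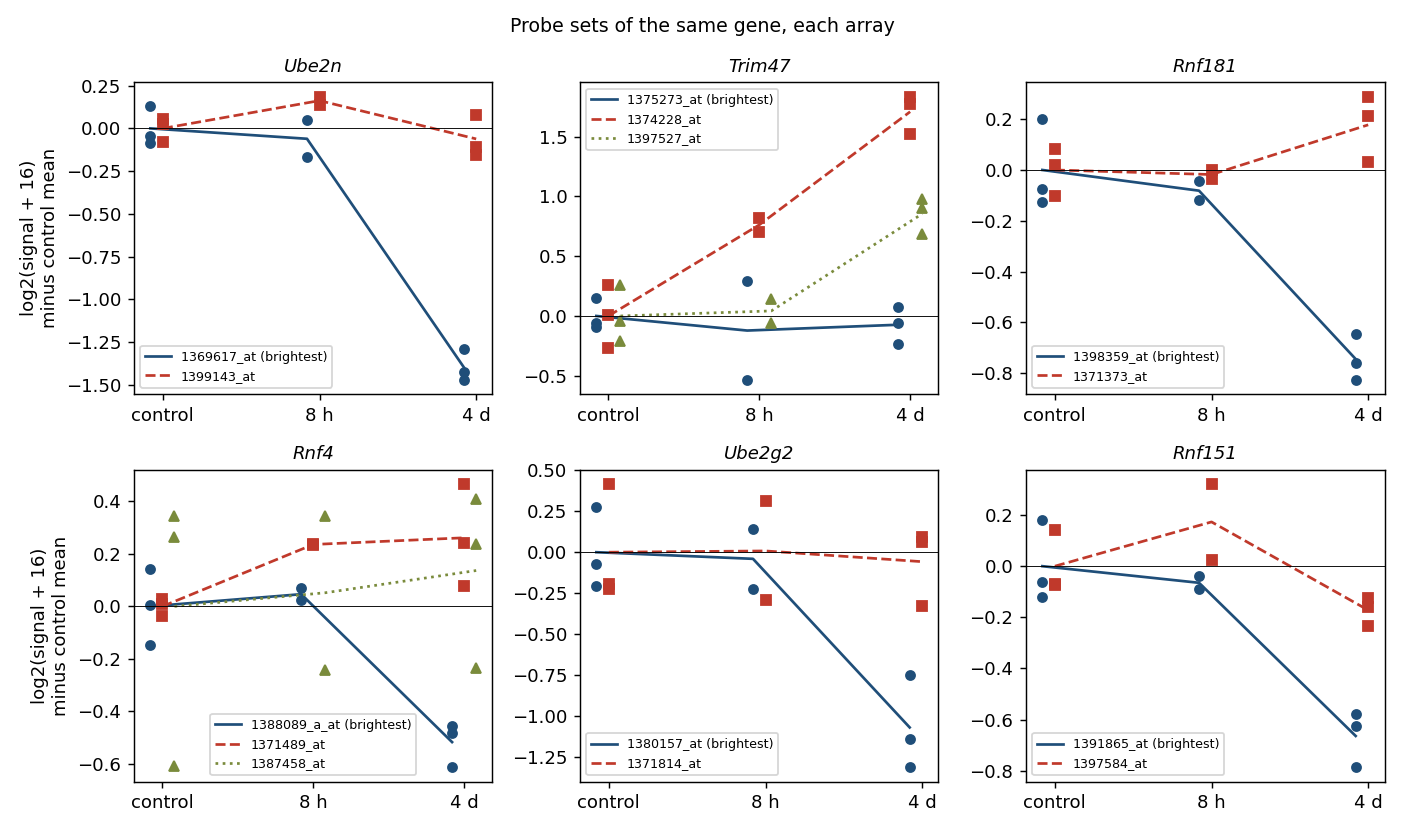
Log2(signal + 16) minus the control mean of the same probe set (vertical axis) in control, at 8 h and at 4 d for the probe sets of 6 genes, 1 point per array and lines through group means. For Ube2n the brighter probe set falls at 4 d while the other stays near 0, and for Trim47 one of the others rises to 1.71 while the brightest stays near 0.

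At 8 h after Adjudin no member was called in limma (0 of 247, against 0.0656% of all probe sets higher and 0 lower). An unadjusted p below 0.05 was found for 4 members, against 775 of the 19808 probe sets tested. The median was -0.02, and none (0) was called with the run as a block. The smallest p-values belonged to the Trim47 probe set that rose at 4 d (81.1 and 89.5 at 8 h, against 55.4, 33.6 and 44.0 in control, log2 difference 0.76, adjusted p 0.743) and, among brightest probe sets, to Ube2z, Usp27x, Usp25 and Rnf32. Ube2z read 435.7 and 526.9 at 8 h, against 346.4, 404.2 and 296.8 in control, without overlap (0.45, adjusted p 1.0), and Usp25 read 163.7 and 186.2 at 8 h, against 157.4, 83.8 and 82.8 in control (0.67, adjusted p 1.0). Usp27x read 17.0 and 27.1 at 8 h, against 40.6, 48.0 and 72.6 in control (-0.86, adjusted p 1.0), near the lower limit of what was kept, and Rnf32 read 1063.3 and 1052.0 at 8 h, against 859.1, 824.6 and 928.9 in control (0.28, adjusted p 1.0). With 2 arrays at 8 h, differences of these sizes were not distinguishable from the spread between arrays.

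Between the times, the later arrays were called higher than those at 8 h for 6 members and lower for 13, or 2.43% and 5.26%, against 3.58% and 2.47% of all probe sets. Blocking on the run gave 15 and 32, against 8.55% and 7.08% of all probe sets. The mean signal at 8 h lay nearer to control than to 4 d for 16 of 16 probe sets that fell at 4 d and 9 of 10 that rose, and 11 and 4 of them were also called against 8 h. The exception was Ube2z. These probe sets were chosen because 4 d differed from control, and few probe sets of the whole array were called at 8 h. The count is therefore largely set by the choice, and its share over all called probe sets is not given here. The comparison of 4 d with 8 h shares its 4 d arrays with the one against control, so that its calls are not separate evidence. The largest were Trim2 (log2 difference 3.51), Trim5 (1.38) and Rnf213 (1.08) upwards and Ube2n (-1.34), Rnf182 (-1.29), Usp12 (-1.07) and Usp35 (-1.04) downwards. Rnf213, a very large ligase induced by interferon, read 163.5, 139.6 and 142.3 at 4 d, against 87.4 and 42.2 at 8 h (SE 0.26, limma adjusted p 0.0393). Its controls, at 94.4, 90.0 and 78.2, lay above both 8 h arrays on 2 of 3 arrays, and 4 d against control was not called (0.67, adjusted p 0.111). Ube2u, an E2 known from the urogenital tract, read 337.6, 478.3 and 331.2 at 4 d, against 644.3 and 717.3 at 8 h (-0.82, adjusted p 0.0319), and Ube2b, the second Rad6 homolog, which mouse spermatids need, averaged 2201 ± 112 at 4 d (SD, n = 3) and 3080 ± 119 at 8 h (SD, n = 2; -0.48, adjusted p 0.0466). Both were above control at 8 h (log2 differences 0.38 and 0.18) without a call, and below it at 4 d (-0.44 and -0.31), also without a call. Trim2, Trim5, Ube2n and Usp12 kept this call in all 19 alternatives, whereas Rnf213, Ube2u and Ube2b lost theirs without 8 h 2, among other settings (Rnf213 adjusted p up to 0.277 and Ube2u up to 0.219). The call of Trim2 is a description only, since it met the signal minimum only through the 4 d arrays.

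The rest of the pathway was read from lists of 83 measured genes outside the 4 families. At 4 d 8 of these genes were higher and 4 lower (9.64% and 4.82%, against 6.13% and 3.71% of all probe sets). None (0) was called at 8 h, where 3 had an unadjusted p below 0.05, against 775 of 19808 probe sets. Blocking on the run called 16 higher and 10 lower, against 13.3% and 9.17% of all probe sets, and without run 2 none (0) was called. Isg15, the interferon-induced modifier, read 87.7, 54.3 and 71.0 at 4 d, against 12.5, 14.8 and 11.4 in control, groups far apart (log2 difference 1.57, SE 0.31, limma adjusted p 0.0113). Isg15 and Herc3 met the signal minimum only through the 4 d arrays, so that these 2 of the 8 calls are a description only. Both E1s for ubiquitin rose: Uba1 averaged 1225 ± 120 at 4 d and 749 ± 30.9 in control (0.69, adjusted p 0.00609), and Uba6, the E1 that charges Ube2z, averaged 1186 ± 145 at 4 d and 562 ± 250 in control (SD, n = 3 each; 1.14, adjusted p 0.0482). Of 18 cullin-RING genes 1 fell, Klhl10, an adaptor of cullin 3 in mouse spermatids (-0.76, adjusted p 0.0204). Of 15 HECT ligases Herc3 rose (1.10, adjusted p 0.0497) and Wwp2 fell (-0.83, adjusted p 0.0120). Of 19 further RING and U-box ligases Traf3 (1.11) and Stub1, the ligase of Hsp70 clients (0.64), rose. Of 18 other deubiquitinases Brcc3 (0.95) and Tnfaip3, the NF-kappaB inhibitor A20 (0.78), rose and Stambpl1 (-0.95) and Otud4 (-0.55) fell. Tnfaip3 read 145.3 and 141.7 at 8 h, against 66.5, 100.1 and 75.4 in control (0.74, adjusted p 0.659), already near its 4 d values of 146.2, 170.2 and 130.7.

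Promoters were searched for the motifs named above in 142 windows of 250 bases that the RefSeq table holds for the members. The half-site was found in 33.8% of them, against 27.1% of windows of all genes tested and 18.2% of all promoters in the table, and the GC box in 61.3%, against 56.3% and 30.5%. The interferon-stimulated element was found in 2.82%, against 2.66% and 3.41%, the full cyclic AMP response element in 2.82%, against 2.87% and 1.59%, and the TATA box in 8.45%, against 6.76% and 12.9%. Of 13 windows of genes that fell at 4 d, 5 held the half-site (Rnf182, Trim17, Ube2g2, Ube2j1 and Ube2n) and 9 the GC box. Of 6 windows of genes that rose, 1 held the half-site (Usp25) and 4 the GC box. Neither set held the interferon-stimulated or the full cyclic AMP element. Windows of the members had a median G+C content of 61.2%, against 59.6% for genes tested.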

How the data were processed

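The authors deposited 1 MAS 5.0 signal intensity per probe set and array, per the submitters' processing notes. The design text also names GeneSpring. The 2% trimmed mean of the deposited intensity was 250.1 on every array, so no further scaling was applied. Detection calls were left aside. Settings files were read to find arrays hybridised together: run 1 held control 1, 8 h 1 and 4 d 1, run 2 control 2 and 4 d 2, run 3 control 3, 8 h 2 and 4 d 3. Arrays of 1 run deviated together in all 7 pairs of different groups, so the run was taken to pair the arrays, and counts from the fit with it as a block are given beside the main ones. Deviations from a group mean cancel within the group, so the arrays at 8 h mirror each other. Negative correlations between runs therefore follow in part from the measure.

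Of 31099 probe sets, 57 were controls, and 19808 had a signal of 50 or more on 2 arrays. On log2(signal + 16), 1 model of the 3 groups was fitted to the 8 arrays by lmFit and eBayes with a trend (limma 3.58.1, R 4.3.3), without a block, and p-values were adjusted by the Benjamini-Hochberg method over all of them at 0.05. The fit was tested on simulated data. Tables were made in Python 3.11.15 with pandas 2.3.3. All 291 gene identifiers of the matched probe sets were in the RefSeq table and no symbol differed from it.

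Members and lists were chosen with earlier results of these data known. Named genes were, by family, up to 4 rises and 4 falls past the threshold at 4 d and the 2 brightest in control, up to 3 called per role or pathway list, the 4 smallest p at 8 h and the 4 largest changes each way between times, each by its brightest probe set; Trim47, Ube2l6, Usp18, Usp9x, Trim66, Usp14, Ube2v2, Rnf8, Rnf168, Ube2u, Ube2b, Rnf4, Rnf25, Ube2a and the second probe sets were named after their values were seen. Alternatives were the pseudocount, scaling, the signal minimum, the trend, the block, the samples in the fit, each array left out and, added after the data were seen, run 2 left out. The number of arrays limits the precision.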

Additional observations from a re-analysis of the deposited data

Results flagged for a closer look

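For 13 of the named genes the effect of Adjudin at 4 d differed from that at 8 h, by limma's test of 4 d minus 8 h on the log2 scale. The differences were negative for Ube2n (-1.34, adjusted p 0.000961), Rnf182 (-1.29, adjusted p 0.0106), Usp12 (-1.07, adjusted p 0.00185), Usp35 (-1.04, adjusted p 0.0319), Ube2g2 (-1.03, adjusted p 0.0192). Smaller negative differences were found for Ube2k (-0.73, adjusted p 0.0228), Rnf181 (-0.66, adjusted p 0.0233), Trim17 (-0.64, adjusted p 0.028), Usp15 (-0.63, adjusted p 0.0208), Rnf151 (-0.60, adjusted p 0.0336). They were positive for Trim2 (3.51, adjusted p 0.00246), Trim5 (1.38, adjusted p 0.00533), Rnf213 (1.08, adjusted p 0.0393). Trim2 met the signal minimum only through the 4 d arrays, so that its call is a description only. The test of 4 d against 8 h uses 3 and 2 arrays, and the control arrays cancel in it. Over all probe sets tested, 3.58% were called higher and 2.47% lower in it. Many genes were named for a call at 4 d against control or a large change between these times. The count of 13 therefore follows in part from the choice. Of the 13, Trim2, Trim5, Ube2n and Usp12 kept this call in all 19 alternatives. All the others lost it without run 2, and in further settings.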

How the results depend on the processing

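No called member that is named changed direction under the alternatives run, whereas the uncalled Usp1, Trim28 and Trim37 changed sign under some. Averaging all probe sets of a gene moved 11 of 15 named values at 4 d by more than their standard error, with that of Ube2n at -0.73. The 26 members called at 4 d against control became 67 with the hybridisation run as the replicate block and 50 with the title number as the block, 11 to 26 when each array was left out in turn (11 without 4 d 1, 14 without 4 d 3, 15 without control 2), and 7 without run 2, an alternative chosen after the data were seen. Calls over all probe sets moved as well, from 1214 higher and 735 lower to 2632 and 1817 with the run block. They were 2116 and 1376 with the title number as the block, 580 and 315 without 4 d 1, and 348 and 168 without run 2. Of the 26 members, 7 probe sets kept their call in each of the 19 alternatives. The 19 members called at 4 d against 8 h became 10 without the trend, 47 with the run as the block, 34 with the title number as the block, 5 to 21 when each array was left out (5 without 8 h 2, 6 without 8 h 1, 6 without 4 d 1, 7 without 4 d 2, 11 without 4 d 3) and 6 without run 2, and 4 probe sets kept their call in each. For 4 d against 8 h, calls over all probe sets went from 709 higher and 489 lower to 1694 and 1403 with the run block. They were 611 and 289 without the trend, and 206 and 132 without run 2. At 8 h against control the count of members was 0 under all of the alternatives. The run block adds 2 terms for 8 arrays, and the number of arrays limits what could be called. Without the single array 4 d 1, the 26 calls became 11 and the 19 became 6.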
